A study of Arabidopsis thaliana with 4 samples.

Results

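Described here are 10 early auxin genes of Arabidopsis thaliana, 8 of the Aux/IAA family (IAA1, IAA2, IAA3, IAA5, IAA6, IAA14, IAA19 and IAA29) and 2 of the GH3 family (GH3.3 and GH3.5). They were chosen by locus code from the 30361 loci measured, and all 10 were present, each with 1 value per array. Wild-type plants of the accession Col-0 were closed for 30 min in a box with the vapour of 10 µM (E)-2-hexenal, a reactive leaf aldehyde, on 3 arrays labelled as biological replicates, or with the solvent acetonitrile on 1 array. Both groups are of the same unmodified genotype, each RNA came from at least 6 plants, and the labels give neither plant age nor the organs taken. With 1 control array, the spread between control samples is unknown, and an exact permutation test of a single gene cannot give a p below 0.25.

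Auxin controls growth by the removal of repressors. Aux/IAA proteins are short-lived repressors that bind auxin response factors (ARFs) at their target promoters. Auxin glues an Aux/IAA protein to an F-box receptor of the TIR1/AFB family, the repressor is degraded, and the ARF is set free. Many Aux/IAA genes are themselves rapidly switched on by the freed ARFs, which closes a negative feedback loop. Several GH3 enzymes form a further loop, since they couple auxin to amino acids and so lower its free level. Transcripts of both families are widely used as early readouts of auxin signalling.

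None of the 10 genes passed the test for a change after 30 min of hexenal. The lowest estimates were those of IAA3 and IAA6, at 3.44-fold and 2.99-fold below the control on the average of the hexenal arrays, and both lay below the control on all 3 hexenal arrays by more than those arrays differed from each other. GH3.3 was below the control and GH3.5 above it on all 3 arrays, by smaller amounts. The other 6 genes had estimates between -0.73 and 0.58 on the log2 scale. For each of these 6, and for GH3.5, the range over the 3 hexenal arrays was larger than the size of the estimate. Levels below are quantile-normalized log2 intensities, and a difference is hexenal minus control on that scale with its standard error (SE) from limma. The call rule asked for at least a 2-fold change together with an adjusted p under 0.05, by limma with Benjamini-Hochberg adjustment over all loci. Of the 10 genes, 0 were called higher and 0 lower, where 0.866% and 0.0329% of all loci were.

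**Figure D1:**
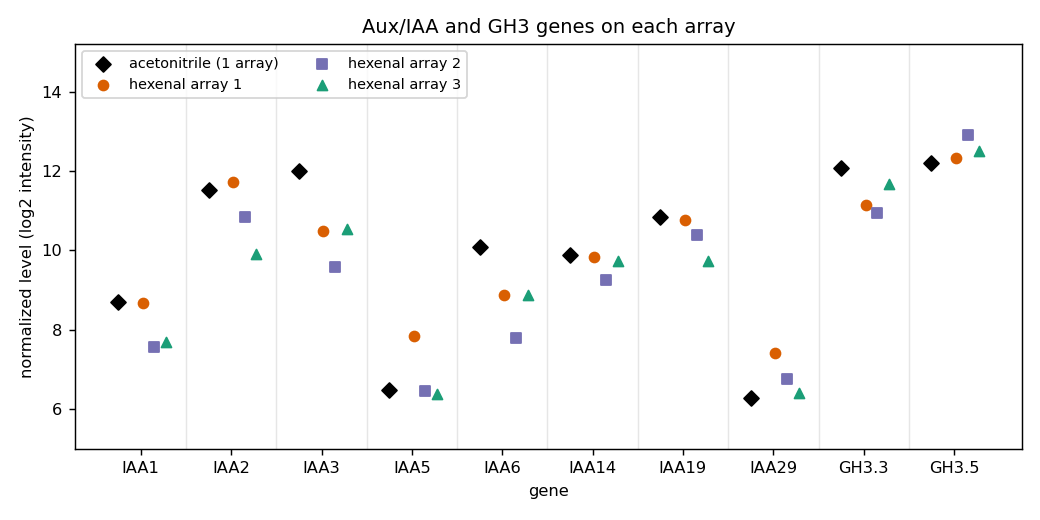
Normalized log2 intensity (vertical axis) of the 10 genes on the acetonitrile array (black diamonds) and on hexenal arrays 1 (orange circles), 2 (violet squares) and 3 (green triangles). For IAA3, IAA6 and GH3.3 the 3 hexenal points stand below the diamond. They do so for IAA1, IAA14 and IAA19 too, with array 1 close to it. For IAA2 and IAA5 the points fall on both sides of it.

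IAA3 (AT1G04240), also known as SHY2, is a repressor that limits root meristem size and alters light responses when stabilized. Its level was 11.99 in the control, against 10.49, 9.59 and 10.54 with hexenal (arrays 1, 2 and 3). In the intensities as deposited this was 4005 in the control and 1468, 772 and 1473 with hexenal. All hexenal arrays lay below the control, by at least 1.45, and array 2 was the lowest. The hexenal mean was 10.21 ± 0.53 (SD, n = 3) and the fitted difference was -1.78 ± 0.44 (95% interval -2.88 to -0.68), a level 3.44-fold lower. The adjusted p was 0.262 by limma, so the gene was not called. In RNA of pooled plants, fewer cells of a type and less RNA per cell cannot be told apart.

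IAA6 (AT1G52830), named SHORT HYPOCOTYL 1 in the reference, is a repressor of the same family. It had a level of 10.10 in the control, against 8.86, 7.80 and 8.88 with hexenal (arrays 1, 2 and 3). All 3 hexenal arrays lay below the control, as they did for 32.4% of all loci, and array 2 was again the lowest. The difference was -1.58 ± 0.49 (95% interval -2.81 to -0.35), a 2.99-fold lower level that was not called (adjusted p = 0.416 by limma). IAA3 and IAA6 were 2 of 10 genes with an unadjusted p under 0.05 and a lower estimate, against 2.91% of all loci, and 0 of 10 had one with a higher estimate, against 5.83%. They were also the 2 genes with an estimate at least 2-fold lower, against 2.95% of all loci, and 0 of 10 had one at least 2-fold higher, against 4.27%. These shares are description only, since the 10 genes were chosen with earlier results of these data known. Among all loci 64 had a lower estimate than IAA3 and 99 a lower one than IAA6. The smallest change of a called locus was larger than either estimate, 2.24 among the falls and 1.80 among the rises.

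The genes IAA1 and IAA14 lie next to each other in the reference's gene order. IAA1 (AT4G14560), known as AXR5, had a level of 8.70 in the control and 8.66, 7.55 and 7.68 with hexenal. Array 1 was almost at the control, whereas arrays 2 and 3 were lower by 1.14 and 1.02. The fitted difference was -0.73 ± 0.48 (95% interval -1.94 to 0.48). IAA14 (AT4G14550), known as SLR, whose stabilized form blocks lateral root formation, had a level of 9.89 in the control and 9.84, 9.26 and 9.73 with hexenal. Array 2 alone stood off, and the difference was -0.28 ± 0.31 (95% interval -1.07 to 0.51), or -0.11 without array 2. On array 1 both genes lay within 0.06 of the control, and this sign is not settled: in the values as deposited IAA14 was above the control there, with intensities of 940 and 934.

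IAA19 (AT3G15540), known as MSG2, acts in hypocotyl growth and tropic bending. Its level was 10.85 in the control and 10.76, 10.40 and 9.74 in hexenal arrays 1, 2 and 3. All 3 were below the control, array 1 by 0.09 and array 3 by 1.11, and the difference was -0.55 ± 0.43 (95% interval -1.63 to 0.53), or -0.27 without array 3. IAA2 (AT3G23030), an auxin-induced member of the family, had a level of 11.52 in the control and 11.72, 10.84 and 9.91 with hexenal. Here the groups overlapped: array 1 was above the control and array 3 was 3.04-fold below it. The SD over the 3 hexenal arrays was 0.91, higher than that of 98.9% of all loci, and the difference was -0.69 ± 0.67 (95% interval -2.39 to 1.00). Without hexenal array 1 the estimate of IAA2 was -1.15, and without array 3 it was -0.23.

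**Figure D2:**
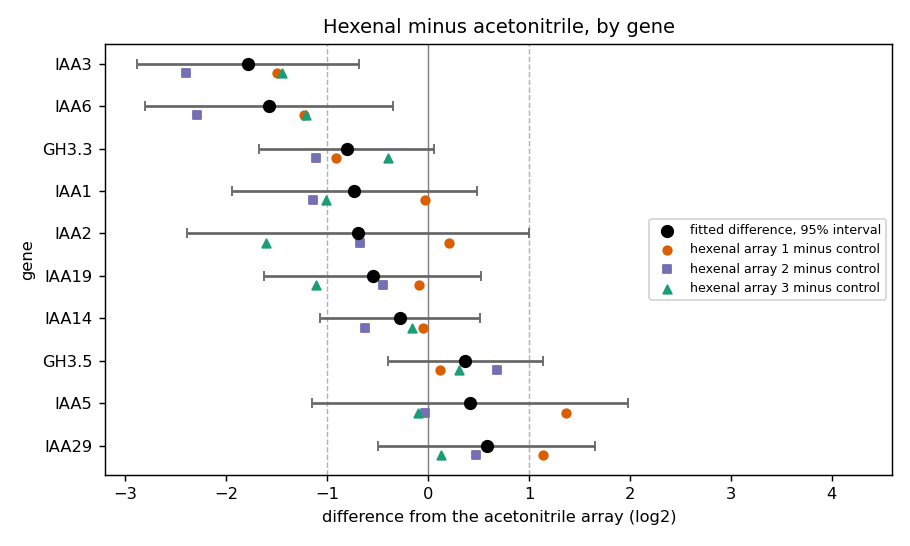
Fitted log2 difference between hexenal and acetonitrile (black points) with its 95% interval from limma (bars), and the difference of each single hexenal array from the control (coloured symbols, drawn just below), for the 10 genes ordered by estimate. Dashed lines mark 2-fold changes. The intervals of IAA3 and IAA6 do not reach 0 before adjustment over all loci, and the other 8 include it.

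IAA5 and IAA29 were dim, both among the 25% of loci with the lowest mean level, so background may hold much of their signal and fold changes depend on it. IAA29 (AT4G32280), known as a target of phytochrome-interacting factors in shade, had a level of 6.28 in the control and 7.42, 6.75 and 6.41 with hexenal. All 3 hexenal arrays were above the control, by 1.14 in array 1 and by 0.13 in array 3, and the difference was 0.58 ± 0.43 (95% interval -0.50 to 1.65), or 0.31 without array 1. IAA5 (AT1G15580) had a level of 6.48 in the control and 7.85, 6.45 and 6.38 with hexenal. Only array 1 was above the control, and the other 2 were within 0.10 below it. The difference of 0.41 ± 0.62 rests on that array, as it was -0.065 without hexenal array 1. Its 95% interval ran from -1.15 to 1.98.

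The GH3 enzymes differed in sign. GH3.3 (AT2G23170), which conjugates auxin to amino acids, had a level of 12.06 in the control and 11.15, 10.95 and 11.67 in hexenal arrays 1, 2 and 3. All 3 hexenal arrays were below the control, as they were for 32.4% of all loci. The difference was -0.81 ± 0.35 (95% interval -1.68 to 0.06), or 1.75-fold lower, with an adjusted p of 0.602 by limma. GH3.5 (AT4G27260), known as WES1, which accepts both auxin and salicylate, had a level of 12.21 in the control and 12.33, 12.90 and 12.52 with hexenal. All 3 arrays were above the control, array 1 by only 0.12, and the difference was 0.37 ± 0.31 (95% interval -0.40 to 1.14), or 0.21 without array 2. Over the 10 genes adjusted p ran from 0.262 for IAA3 to 0.876 for IAA5.

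As a set, 6 of the 10 genes lay below the control on all 3 hexenal arrays, 2 lay above it and 2 straddled it. Of all loci 32.4% lay below on all 3 arrays and 26.1% above. The choice of the 10 genes was made with earlier results known, so the shares stand side by side without a test. The count of 6 includes IAA1 and IAA14, which stood so close to the control on array 1 that the count was 5 in the values as deposited and 4 with cyclic loess. The median difference of the 10 genes was -0.62, beside -0.03 over all loci, and it was -0.31 without hexenal array 3. On hexenal arrays 1, 2 and 3 taken singly the median was -0.04, -0.65 and -0.71, beside -0.02, -0.03 and -0.04 over all loci. The median SD over the hexenal arrays was 0.525 for the 10 genes and 0.236 for all loci.

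Hexenal array 1 often gave the highest of the 3 hexenal values. It did so for 6 of the 10 genes, all Aux/IAA, where 35.5% of all loci had their highest hexenal value there. Flower marker genes were also highest on array 1, all 5 of 5 (AP1, AP3, PI, AG and SEP3). The difference of AP1, a floral identity gene, from the control was 1.97 on array 1, and -0.07 and 0.04 on arrays 2 and 3. Summed over the 5 flower markers, the normalized level was 356 in the control, 790 on hexenal array 1, and 338 and 340 on the other hexenal arrays. All 5 were among the dimmest 25% of loci. Their control levels ran from 5.69 (SEP3) to 6.51 (PI), where the lowest level of any locus was 5.38. Their part in the values of the 6 genes highest on array 1, among them IAA2, IAA5 and IAA29, was not tested. Without array 1 the estimates of IAA3 and IAA6 were -1.93 and -1.72, and those of IAA1 and GH3.3 were -1.05 and -0.76, none of them called. Green leaf markers lay near the top of the intensity scale. Quantile normalization gives every array the same set of values, and a gene's value follows its rank. The differences of the green leaf markers ran from -0.19 (LHCB1.3) to 0.17 (LHCB2.1). RBCS1A, the Rubisco small subunit gene, had deposited intensities of 54014 in the control and 49648, 54755 and 48645 on hexenal arrays 1, 2 and 3. Of 5 root markers 4 were among the dimmest 25% of loci, and the exception was PYK10, a glucosidase gene. Summed over the 5 root markers, the level was 29870 in the control and 13540, 31886 and 22162 on hexenal arrays 1, 2 and 3. That sum is almost wholly PYK10, which differed from the control by -1.17 on array 1. Its deposited intensity was 29359 in the control and 13138, 32057 and 21676 with hexenal. Of the 5 genes, 2 lay below the control on all 3 arrays and 2 straddled it. The remaining 1, TIP2;3, lay above it on all 3, by 0.92 on array 1. The part of the root markers was not tested either.

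**Figure D3:**
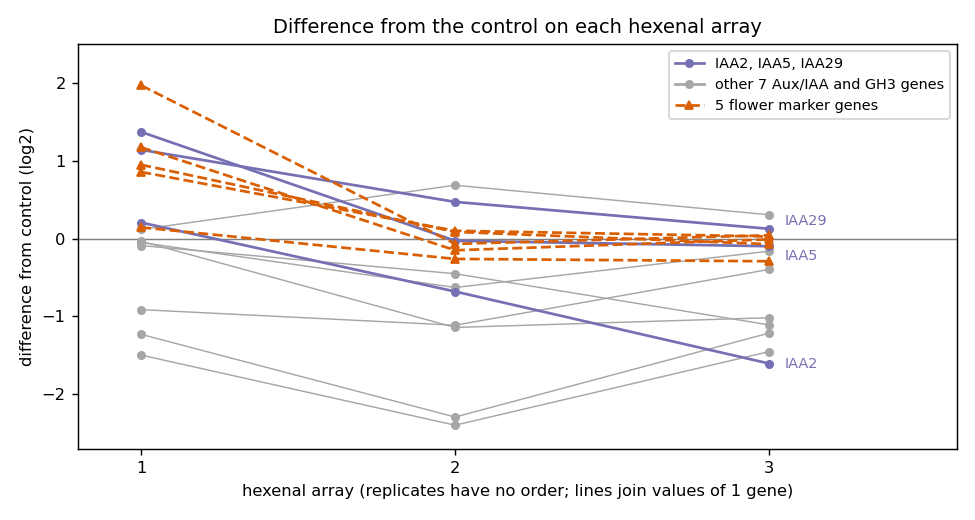
Difference from the control (log2, vertical axis) on hexenal arrays 1, 2 and 3 for IAA2, IAA5 and IAA29 (violet), the other 7 genes (grey) and 5 flower markers (orange, dashed), 1 line per gene. The violet genes were picked with their values known, so their place above 0 on array 1 beside the flower markers is no test of likeness. GH3.5, drawn grey, is also above 0 there, at 0.12. On array 3 IAA2 is at -1.60 while IAA5 and IAA29 are near 0.

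The rest of the auxin pathway was then set beside these genes. Among 21 other Aux/IAA genes 0 were called in either direction, and their median difference was -0.02. The largest differences were those of IAA20 (-1.61 ± 0.26, adjusted p = 0.0900 by limma) and IAA10 (1.20 ± 0.24, adjusted p = 0.165). IAA20 had a level of 8.39 in the control and 6.64, 6.72 and 6.99 with hexenal. Of all loci 32.4% likewise lay below the control on all 3 hexenal arrays. IAA20, IAA10 and IAA16 (0.74 ± 0.24) were those of the 21 with an unadjusted p under 0.05. Of all loci 2.91% had one with a lower estimate and 5.83% with a higher one. The gene next to IAA3 in the reference, IAA17 (AXR3), was at 0.05 ± 0.23 where IAA3 was at -1.78, and IAA7 (AXR2), next to IAA2, was at 0.02 ± 0.34. Neither difference between neighbours was tested.

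Of 9 other GH3 genes none was called, and their median was 0.03. The list was drawn by family, with JAR1 and PBS3 in it, and not by use of auxin as a substrate. On each side 1 gene had an unadjusted p under 0.05, against 2.91% of all loci lower and 5.83% higher. GH3.10 (DFL2), linked to light-dependent hypocotyl growth, had a level of 13.22 in the control and 11.89, 11.51 and 11.43 with hexenal. All 3 hexenal arrays lay below the control, as for 32.4% of all loci. The difference was -1.61 ± 0.29 (adjusted p = 0.118 by limma). GH3.1 was at 0.91 ± 0.31. Across the family, then, single members had estimates on both sides of 0, as GH3.3 and GH3.5 did.

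The 6 auxin receptor genes had a median of -0.61, with 0 called and 2 (AFB2 and TIR1) at an unadjusted p under 0.05 with a lower estimate, against 2.91% of all loci. The difference was -0.86 ± 0.28 for AFB2 and -0.65 ± 0.29 for AFB1, and 5 of the 6 receptor genes lay below the control on all 3 arrays, against 32.4% of all loci. The 15 ARF genes had a median of -0.18 and 0 calls. ARF17 was at -0.82 ± 0.33 and ARF10 at -0.75 ± 0.32. Of the 15, ARF5 alone (-0.60 ± 0.23) had an unadjusted p under 0.05, against 2.91% of all loci with a lower estimate.

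Among 11 genes of auxin synthesis, which make indole-3-acetic acid from tryptophan, 0 were called and the median was -0.63. The flavin monooxygenase genes YUC5, YUC6 and YUC3 had an unadjusted p under 0.05, with differences of -1.67 ± 0.36, -1.60 ± 0.35 and -1.01 ± 0.37. Of all loci 2.91% had such a p with a lower estimate. Of 10 transport genes 0 were called, with a median of -0.06. The kinase gene PID, whose product directs PIN auxin exporters, was at 1.51 ± 0.40, the influx carrier gene LAX3 at -0.76 ± 0.35 and its relative LAX2 at -0.68 ± 0.26. PID (higher) and LAX2 (lower) had an unadjusted p under 0.05, against 5.83% and 2.91% of all loci on those sides.

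Of 6 loci listed as other early auxin genes, 1 was called higher, AT1G14130, where 0.866% of all loci were. The reference gives it no symbol, so its place in this list is not borne out by the sources used here. Its level was 8.70 in the control and 11.69, 11.48 and 11.07 with hexenal, all far above the control. The difference was 2.72 ± 0.32 (adjusted p = 0.0348 by limma), and without hexenal array 2, where 0 of all loci were called by limma and 1547 had an unadjusted p under 0.05, it was 2.67 (adjusted p = 0.213). The homeobox gene HAT2, known as rapidly auxin-induced, had a level of 10.34 in the control and 8.74, 8.25 and 8.69 with hexenal. Its difference of -1.79 ± 0.30 missed the call (adjusted p = 0.0950). The median of these 6 genes was 0.05.

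**Figure D4:**
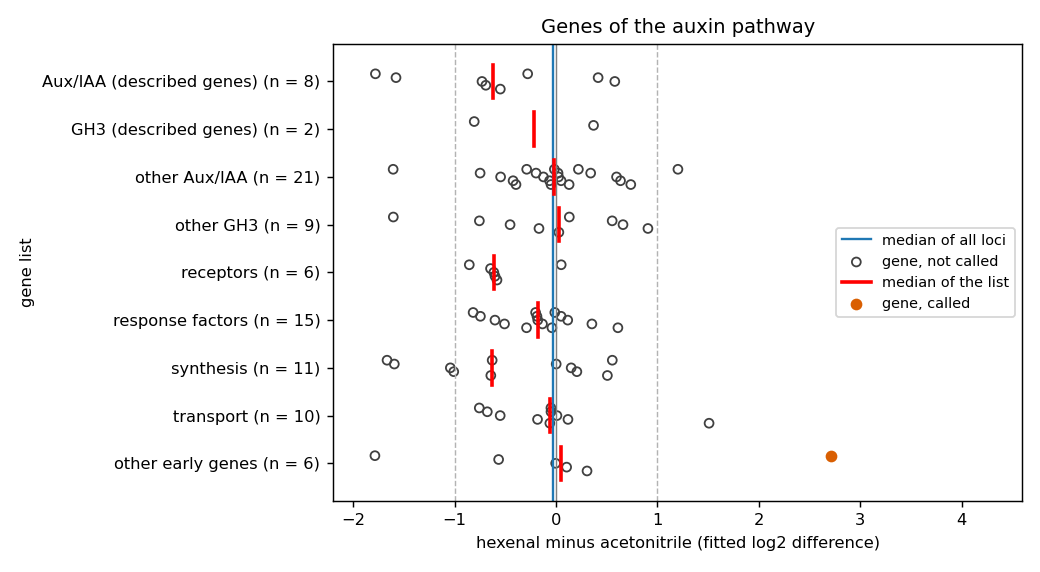
Fitted log2 difference between hexenal and acetonitrile (horizontal axis) of every gene in 9 lists of the auxin pathway, with the median of each list (red) and of all 30361 loci (blue). The single filled point is AT1G14130 at 2.72, and the receptor list, the synthesis list and the 8 described Aux/IAA genes have medians between -0.63 and -0.61.

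Loci were then sought whose 3 array differences lay closest to the median differences of the 10 genes. Single members can lie far from that median, as IAA3 did at -1.50, -2.40 and -1.45. Among 8516 other loci with a symbol and a control level above the lower quartile, the nearest were PFD3, HB18, NAC057, TCP24 and DUF6. Their root mean square distance on the log2 scale ran from 0.038 to 0.070 over 3 arrays. PFD3 was at -0.08, -0.68 and -0.66 on arrays 1, 2 and 3, and none of the 5 was called. The likeness is to that median, not to each gene, and describes these 3 arrays only.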

How the data were processed

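Per the labels' protocols, total RNA was turned into cDNA from an oligo-dT primer, labelled with Cy3 and hybridized to 1-colour NimbleGen arrays. What the authors deposited is a linear intensity for each locus and array. How they corrected background, normalized and combined probes is not given in the sources used here. The median deposited intensity was 936 to 982. Lower quartiles differed by 0.20 on the log2 scale, so log2 values were quantile normalized. No counts underlie the values, and precision is limited by having 4 arrays.

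Hexenal was compared with acetonitrile by limma 3.58.1 in R 4.3.3 (lmFit, eBayes without trend), two-sided, over all 30361 loci. The 2 residual degrees of freedom of each locus come from the hexenal arrays. Intervals are unadjusted. The fit was checked on simulated data.

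Names came from RefSeq's gene table (assembly TAIR10.1), which held the name used for 110 of 111 listed loci. Gene order came from the start positions in that table. No promoters, proteins or probe sequences were used here, and sharing of probes between related genes was not tested. The members and lists were chosen with earlier results of these data known. All members are named. Of each further list, called genes are named (up to 4), otherwise the 2 with the largest differences. Other genes of these lists were named after their values were seen. Alternatives were cyclic loess, median centring, no normalization (values as deposited), no dimmest 25% of loci, eBayes with trend and robust, 16 added before the log, no fold threshold, and each hexenal array left out.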

Additional observations from a re-analysis of the deposited data

How the results depend on the processing

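No member was called under any of the alternatives run, and 87 of 88 member estimates kept their sign. The exception was IAA5, which ran from -0.065 without hexenal replicate 1 to 0.67 without replicate 3. Among the 88 are 10 estimates from eBayes with trend and robust and 8 without the dimmest 25% of loci. These could not change, because both settings use the same normalized values as the main fit. The lowest adjusted p of a member by limma was 0.0630, with eBayes with trend and robust. The dim filter removed IAA5 and IAA29, which then have no value. The median of the members ran from -0.77 to -0.31 when 1 hexenal array was left out and from -0.71 to -0.58 under the other alternatives. Over all loci, 263 were called higher and 10 lower. These counts were 573 and 55 with eBayes with trend and robust, 18 lower without the dimmest 25% of loci, and 0 to 367 higher and 0 to 39 lower when 1 array was left out. The count of 0 by limma came without replicate 2, with 1547 loci at an unadjusted p under 0.05. The causes were not tested. With trend and robust, IAA20 and GH3.10 were called lower (adjusted p = 0.0208 and 0.00963 by limma). Without hexenal replicate 1, GH3.10 and YUC6 were called lower (0.0475 and 0.0461). No paired analysis was possible with a single control array, which also carries no replicate number. IAA5 and IAA29 are dim, and no background share was measured for them.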

Other observations

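Genes of phytochrome-interacting factors (PIFs), which act on several auxin genes in shade and warmth, and of shade markers were measured beside the auxin genes. Of 8 such genes 0 were called, and their median difference was -0.04. The shade-induced homeobox gene ATHB2 had a level of 8.12 in the control and 10.02, 10.22 and 10.49 with hexenal. All 3 hexenal arrays lay above the control, by a fitted difference of 2.12 ± 0.28 that missed the threshold (adjusted p = 0.0516 by limma). ATHB2 was called without the dimmest 25% of loci (adjusted p = 0.0289), with eBayes with trend and robust (0.0228) and without hexenal replicate 1 (0.0208). PIF7 was at -0.61 ± 0.28 and PIF4 at 0.06 ± 0.29. ATHB2 and HAT2 encode homeodomain-leucine zipper proteins of the same class, and their estimates had opposite signs on all 3 hexenal arrays. The shade marker PIL1 was at 0.13 ± 0.35, with a level of 6.69 in the control.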
